A study of Mus musculus with 8 samples.

Results

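NRF2 antioxidant genes are the 9 genes Nfe2l2, Keap1, Nqo1, Gclc, Gclm, Hmox1, Srxn1, Txnrd1 and Slc7a11, taken by name from the 22180 genes that the liver arrays measured, and all 9 were measured. Each gene was read from a transcript cluster, the set of probes along 1 transcript, that names only that gene, and where a gene had several clusters the one with the highest mean over all 8 arrays was kept. Livers came from adult male offspring at 24 weeks of age, with 1 array per liver. HFD PN offspring (n = 4) were nursed by dams given a 60% high-fat diet (D12492) during lactation, and Ctrl PN offspring (n = 4) by dams given a standard chow, for which the labels and the paper name different products. Dams were C57BL/6J mice, both groups of offspring were weaned onto a normal diet and received no other treatment, and the livers were taken in a non-fasted state. Neither the labels nor the paper say which litter each liver came from, and the p-values therefore speak only of the spread among these 8 livers. The comparison asks whether milk from dams on a high-fat diet left the adult liver with another level of the antioxidant program.

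NRF2, the protein of Nfe2l2, is a transcription factor that the adaptor protein of Keap1 marks for degradation while the cell is unstressed. Oxidants and electrophiles modify Keap1, NRF2 then accumulates, pairs with a small Maf protein and binds antioxidant response elements near genes that make glutathione, reduce thioredoxin, detoxify quinones and break down heme. Nfe2l2 messenger RNA is therefore a poor measure of NRF2 activity, and the targets are the usual readout. In liver the pathway is known for its part in the handling of drugs and lipid peroxides.

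The binding letters are shown here because they are what the target genes are known to share. Promoter sequences (RefSeq, build GRCm38.p6, 250 bases before to 50 bases after each start) were matched for 7 of the 9 genes, which had 9 promoters, and Gclc and Hmox1 were not matched. The letters TGACNNNGC, the core of the element, were searched on both strands and occurred in 4 of these 9 promoters, 1 each of Nfe2l2, Gclm, Srxn1 and Txnrd1. Keap1, Nqo1 and Slc7a11 had no match in this window, and sequence outside it was not searched. Of all 32851 promoters searched 12.39% held them, so that a match is a description and no proof of a site. The matches are given below on the strand of the gene with the matched letters in capitals, and those of Gclm, Srxn1 and Txnrd1 lie on the opposite strand and so read as the reverse complement.
Nfe2l2: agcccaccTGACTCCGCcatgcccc
Gclm: tcccgggcGCACCGTCAactctcac
Srxn1: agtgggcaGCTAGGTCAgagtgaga
Txnrd1: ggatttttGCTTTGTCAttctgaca
The matches began at base -240 from the start of Nfe2l2 (chr2:75704614-75704913, minus strand), at base -134 of Gclm (chr3:122245307-122245606, plus strand), at base 29 of Srxn1 (chr2:152105274-152105573, plus strand) and at base -92 of 1 of the 3 Txnrd1 promoters (chr10:82858956-82859255, plus strand). The letters TGANTCA, the site of the factor AP-1, can overlap the element. They occurred in 7.81% of all promoters, and 8.97% of all genes had a promoter with them. Of the 7 genes, Srxn1 held them, with matches at bases -102 and -45. The match at base -45 goes on with gc, so that it equals TGACNNNGC but for a G in place of the first C. The search for TGACNNNGC did not take that form, and which stretch of Srxn1 binds NRF2 was not tested. Both matches are shown here as a pair on the strand of the gene.
Srxn1, base -102: ggagggccTGAGTCAccacgctg
Srxn1, base -45: attcacccTGAGTCAgcggccgg

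Before the groups are compared, 2 arrays need to be named. Across genes, which are not independent replicates, Pearson's r with the other arrays was 0.945 to 0.968 for HFD PN replicate 1. It was 0.968 to 0.979 for Ctrl PN replicate 3. The median r of these 2 arrays was 0.947 and 0.969 in the same order, and that of each of the other 6 was 0.987 or 0.988. Among the 4452 genes with a mean log2 level from 3 to 6, HFD PN replicate 1 lay a median of -0.75 from the mean of the other HFD PN livers and Ctrl PN replicate 3 a median of -0.35 from the other Ctrl PN livers. For the 1158 genes from 6 to 9 these medians were -0.34 and -0.23, and for the 15755 genes from 1 to 3 they were 0.01 and 0.03. All 10 hepatocyte markers were measured. The level of a marker list is the log2 of the summed linear levels of its genes, so that the brightest genes weigh most. For hepatocytes it ran from 14.01 to 14.36 in HFD PN and from 14.07 to 14.30 in Ctrl PN livers. The lowest of each group was the array that stood apart, HFD PN replicate 1 and Ctrl PN replicate 3. Genes of the list did not move alike on HFD PN replicate 1. Cyp2e1 was at 10.42 there and 11.42 to 11.47 in the other HFD PN livers, while Ttr was at 11.98 and 11.90 to 11.92. Albumin was the brightest of the list, at a mean of 12.24. The upper quartile of gene levels was 2.64 on HFD PN replicate 1, 2.92 on Ctrl PN replicate 3 and 3.16 to 3.31 on the other 6. No array was dropped from the values given first.

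None of the 9 genes differed between HFD PN and Ctrl PN livers beyond the spread between livers. At an unadjusted p under 0.01, the exploratory threshold of the paper, limma called 0 of the 9, beside 0.555% of all genes, and at an unadjusted p under 0.05 it called 0 of the 9, beside 3.49% of all genes. At an adjusted p under 0.05 limma called 0 of the 9 and 0% of all genes, and the adjusted p of each of the 9 was 0.99988. The groups overlapped for all 9 genes, and over all genes they did not overlap for 2.82%. HFD PN minus Ctrl PN differences were above 0 for 6 of the 9, beside 44.1% of all genes, with a median of 0.06 against a median of -0.02 over all genes. They ran from -0.21 for Keap1 to 0.34 for Nfe2l2 on the log2 scale. In the plot of the levels by liver, HFD PN replicate 1 or Ctrl PN replicate 3 is the lowest point for 6 of the 9 genes.

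**Figure D1:**
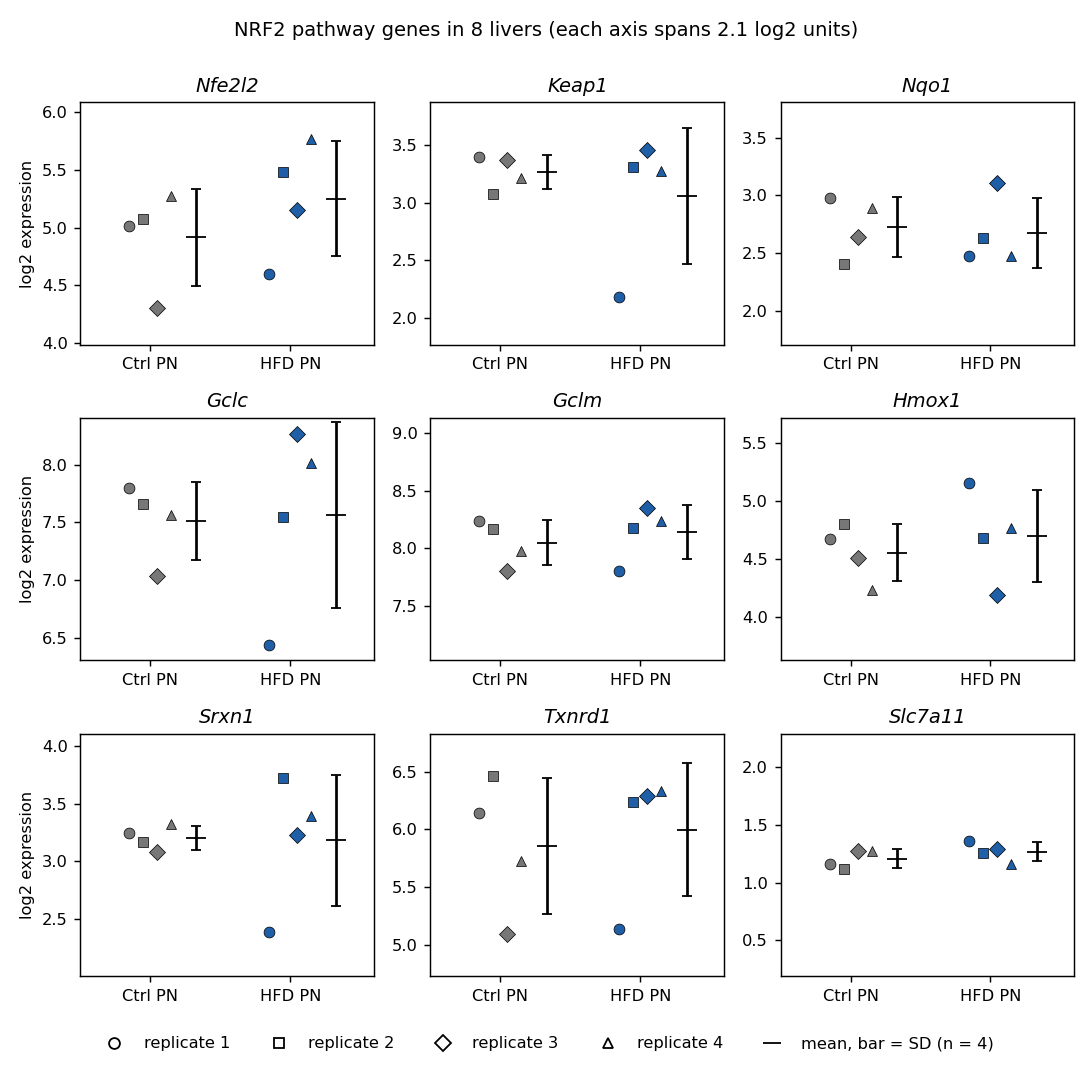
Log2 expression of the 9 genes in each liver of Ctrl PN (grey) and HFD PN (blue), with the symbol giving the replicate number and the bar the mean and SD (n = 4). HFD PN replicate 1 (blue circle) is the lowest liver for 4 genes (Keap1, Gclc, Gclm and Srxn1) and the highest for Hmox1 and Slc7a11.

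Nfe2l2 (transcript cluster 17386700), the gene of NRF2, had log2 levels of 4.602, 5.48, 5.15 and 5.77 in HFD PN replicates 1 to 4 and of 5.01, 5.07, 4.30 and 5.27 in Ctrl PN replicates 1 to 4. HFD PN replicates 2 and 4 lay above all Ctrl PN livers, and the lowest liver was Ctrl PN replicate 3, followed by HFD PN replicate 1. HFD PN livers averaged 5.25 ± 0.50 (SD, n = 4) and Ctrl PN livers 4.91 ± 0.42 (SD, n = 4), which gave a difference of 0.34 (standard error, SE, 0.28). Its 95% interval from limma ran from -0.30 to 0.97, or from 0.812 to 1.96 as a fold, and a two-sided exact permutation of the livers between the groups gave p = 0.314. With 4 livers against 4 this permutation, which is also the one behind the permutation p of every gene below, cannot give a p under 0.0286. With HFD PN replicate 1 left out the difference was 0.55 (95% interval 0.02 to 1.08, limma adjusted p = 0.518) and passed the unadjusted threshold of 0.05. Leaving out Ctrl PN replicate 3 instead gave 0.13. Without both it was 0.35 (95% interval -0.01 to 0.71).

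Keap1 (transcript cluster 17524659), the gene of the NRF2 inhibitor, had log2 levels of 2.18, 3.31, 3.46 and 3.27 in HFD PN replicates 1 to 4 and of 3.39, 3.08, 3.37 and 3.21 in Ctrl PN replicates 1 to 4. Of the 8 livers 7 lay within 3.08 to 3.46, and HFD PN replicate 1 lay below them. The difference of -0.21 (SE 0.26, 95% interval -0.80 to 0.38; exact permutation p = 0.80) became 0.08 (95% interval -0.17 to 0.34) without that liver. A second cluster that names Keap1 (17515128) was dimmer, at 1.74 in HFD PN and 1.61 in Ctrl PN livers, and its difference of 0.13 (SE 0.11, from the fit over all clusters) had the opposite sign.

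Gclc and Gclm encode the catalytic and the modifier subunit of glutamate-cysteine ligase, the rate-limiting enzyme of glutathione synthesis. Gclc (transcript cluster 17519579) had log2 levels of 6.44, 7.54, 8.27 and 8.01 in HFD PN replicates 1 to 4 and of 7.80, 7.65, 7.03 and 7.56 in Ctrl PN replicates 1 to 4. HFD PN livers thus held both the highest values (replicates 3 and 4, above all Ctrl PN livers) and the lowest (replicate 1, below all of them), with a range over all livers of 1.83, the widest of the 9 genes. The means were 7.56 ± 0.81 (SD, n = 4) and 7.51 ± 0.33 (SD, n = 4), a difference of 0.05 (SE 0.37; exact permutation p = 0.914) with a 95% interval from -0.78 to 0.89. It was 0.43 (95% interval -0.06 to 0.92, limma adjusted p = 0.554) without HFD PN replicate 1, -0.11 without Ctrl PN replicate 3 and 0.27 (95% interval -0.13 to 0.66) without both.
Gclm (transcript cluster 17402283) had the same lowest and highest livers as Gclc in a narrower range of 0.55. Its log2 levels were 7.80, 8.18, 8.35 and 8.24 in HFD PN replicates 1 to 4 and 8.24, 8.17, 7.81 and 7.98 in Ctrl PN replicates 1 to 4, so that HFD PN replicate 1 and Ctrl PN replicate 3 lay together at the low end. The difference was 0.09 (SE 0.15, 95% interval -0.24 to 0.43; exact permutation p = 0.543). Without HFD PN replicate 1 it was 0.21 (95% interval -0.08 to 0.49), and without both arrays 0.13 (95% interval -0.13 to 0.38).
Slc7a11 (transcript cluster 17405082) encodes the cystine importer that supplies cysteine for glutathione. Its log2 levels of 1.36, 1.26, 1.29 and 1.16 in HFD PN replicates 1 to 4 and 1.16, 1.12, 1.28 and 1.28 in Ctrl PN replicates 1 to 4 were all below 1.55, the median of the deposited values over every cluster and array. It is therefore not shown to lie above background in these livers, and its difference of 0.06 (SE 0.09) is one between dim values. A second cluster (17397421), equally dim at 1.07 in HFD PN and 1.25 in Ctrl PN livers, had a difference of -0.18 (SE 0.12, from the fit over all clusters), the opposite sign.

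Txnrd1 encodes the cytosolic thioredoxin reductase, a selenoprotein that keeps thioredoxin reduced with NADPH. The gene (transcript cluster 17235915) had log2 levels of 5.14, 6.24, 6.29 and 6.33 in HFD PN replicates 1 to 4 and of 6.14, 6.46, 5.09 and 5.72 in Ctrl PN replicates 1 to 4. HFD PN replicates 2, 3 and 4 lay within 6.24 to 6.33, below Ctrl PN replicate 2 and above the other Ctrl PN livers, and the lowest 2 livers were again Ctrl PN replicate 3 and HFD PN replicate 1. The means were 5.997 ± 0.58 (SD, n = 4) and 5.85 ± 0.59 (SD, n = 4), a difference of 0.14 (SE 0.35, 95% interval -0.65 to 0.93; exact permutation p = 0.714). The difference was 0.43 without HFD PN replicate 1, -0.11 without Ctrl PN replicate 3 and 0.18 (95% interval -0.21 to 0.56) without both.
Srxn1 encodes sulfiredoxin, which repairs overoxidised peroxiredoxins. Its transcript cluster (17377666) had log2 levels of 2.39, 3.72, 3.23 and 3.39 in HFD PN replicates 1 to 4 and of 3.24, 3.16, 3.08 and 3.32 in Ctrl PN replicates 1 to 4. Ctrl PN livers were close together (SD 0.10, n = 4), while HFD PN replicates 2 and 4 lay above and replicate 1 below all of them (SD 0.57, n = 4). The difference was -0.02 (SE 0.25, 95% interval -0.59 to 0.54; exact permutation p = 0.971) and 0.24 (95% interval -0.06 to 0.54, limma adjusted p = 0.575) without HFD PN replicate 1.

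Nqo1 encodes the quinone reductase that is the most used marker of NRF2 activity. The gene (transcript cluster 17512732) had log2 levels of 2.47, 2.63, 3.11 and 2.47 in HFD PN replicates 1 to 4 and of 2.97, 2.40, 2.63 and 2.89 in Ctrl PN replicates 1 to 4. The highest liver was HFD PN replicate 3 and the lowest Ctrl PN replicate 2, so that neither of the 2 arrays that stood apart was at an end. The means of 2.67 ± 0.30 (SD, n = 4) and 2.72 ± 0.26 (SD, n = 4) differed by -0.05 (SE 0.18; exact permutation p = 0.83). The 95% interval ran from -0.46 to 0.36, or from 0.725 to 1.28 as a fold, and without both arrays the difference was -0.02 (95% interval -0.46 to 0.43).
Hmox1 encodes heme oxygenase 1, which breaks down heme in macrophages and in stressed hepatocytes and is repressed by the factor Bach1. Its transcript cluster (17502573) had log2 levels of 5.15, 4.68, 4.18 and 4.77 in HFD PN replicates 1 to 4 and of 4.67, 4.80, 4.51 and 4.23 in Ctrl PN replicates 1 to 4. HFD PN replicate 1, low for most of the other genes, was here the highest liver, and HFD PN replicate 3, the highest for Gclc, Gclm, Nqo1 and Keap1, was the lowest. The difference of 0.14 (SE 0.21, 95% interval -0.33 to 0.62; exact permutation p = 0.571) was -0.01 (95% interval -0.41 to 0.40) without HFD PN replicate 1. In the same liver the neutrophil genes S100a8 and S100a9 were at 3.52 and 3.61, against 1.28 to 1.97 and 1.43 to 1.71 in the other 7 livers. The list level of the 5 neutrophil markers, the log2 of their summed linear levels, was 5.02 in that liver. It was 3.70 to 3.82 in the other HFD PN and 3.63 to 3.94 in Ctrl PN livers. Of the 5 markers, 3 (Ngp, Camp and Ltf) were at a mean under 1.55. Of these 3, Camp was at 1.86 in that liver and 0.98 to 1.44 elsewhere, while Ngp at 1.28 and Ltf at 1.37 lay within the range of the other livers. Of the 10 macrophage markers, 9 had differences below 0, beside 12389 of all 22180 genes, with a median of -0.25 (-0.11 without HFD PN replicate 1). Their list level, formed in the same way, was 7.87 in that liver, 7.89 to 8.35 in the other HFD PN and 8.10 to 8.26 in Ctrl PN livers. Single macrophage markers did not move alike there. Clec4f at 6.40 lay above all other livers (5.47 to 6.35), and C1qb at 3.81 lay below them (5.20 to 5.72). The part of these cells in the Hmox1 values was not tested, and in whole liver more cells of a type and more RNA per cell cannot be told apart.

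**Figure D2:**
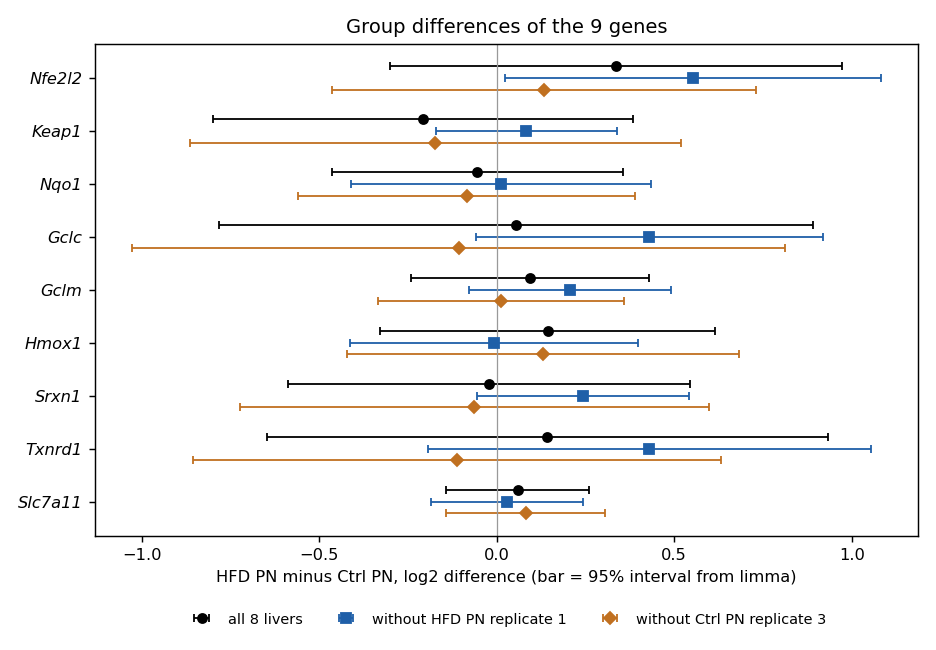
HFD PN minus Ctrl PN difference of each gene on the log2 scale with its 95% interval from limma, for all 8 livers (black), without HFD PN replicate 1 (blue) and without Ctrl PN replicate 3 (orange). With all livers each interval includes 0, and without HFD PN replicate 1 the interval of Nfe2l2 runs from 0.02 to 1.08.

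The low values of the 9 genes often came from the 2 arrays named above. HFD PN replicate 1 was among the lowest 2 livers for 7 of the 9 genes and Ctrl PN replicate 3 for 5 of the 9. In HFD PN replicate 1, Gclc lay -1.50 from the mean of the other HFD PN livers, Keap1 -1.17, Txnrd1 -1.15, Srxn1 -1.06 and Nfe2l2 -0.87, and Hmox1 lay 0.61 above it. Nfe2l2, Keap1, Srxn1 and Txnrd1 lay between the quartiles of all genes of their level in that liver (-1.24 and -0.24 for mean levels from 3 to 6), while Hmox1, of the same level, lay above them. Gclc lay below the quartiles of its own level (-0.87 and 0.21 for mean levels from 6 to 9). In Ctrl PN replicate 3, Txnrd1 lay -1.02 and Nfe2l2 -0.81 from the other Ctrl PN livers, both below the quartiles of -0.66 and -0.05 at their level, and Gclc lay -0.64, below the lower quartile of -0.60 at its level. Keap1 in the same liver lay 0.14 above the rest of its group and Hmox1 -0.06 from it, so that the genes were not all low there. What set these 2 arrays apart was not tested.

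**Figure D3:**
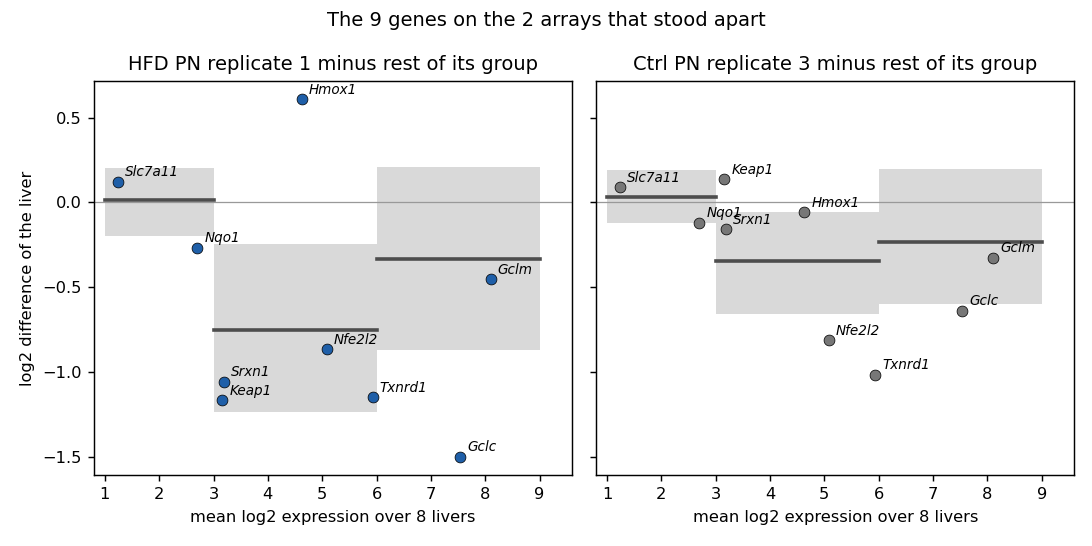
Log2 difference of HFD PN replicate 1 (left) and of Ctrl PN replicate 3 (right) from the mean of the other livers of its group, against the mean level of the gene over 8 livers. Points are the 9 genes, thick lines are medians and grey boxes quartiles of all genes with a mean level from 1 to 3, 3 to 6 and 6 to 9. Most of the 9 genes are low on the left, with Gclc at -1.50, while Hmox1 is at 0.61.

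The 3 genes of widest spread over the 8 livers were Gclc, Txnrd1 and Nfe2l2. For each of them, the 3 genes whose values centred on their own mean lay closest over the 8 livers were named, by the mean absolute difference in log2. For Gclc these were Gaa, Dsg2 and Prep, for Txnrd1 Farp2, Prkar2a and Zdhhc9, and for Nfe2l2 Dync1li2, Rnd3 and Pan3. The mean absolute differences ran from 0.06 for Farp2 to 0.09 for Pan3. In all 9 of these genes HFD PN replicate 1 and Ctrl PN replicate 3 were the lowest 2 livers. They were also the lowest 2 for Gclc, Txnrd1 and Nfe2l2, so that the choice by likeness largely fixed this. What the likeness comes from was not tested.

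Without HFD PN replicate 1 the differences of 8 of the 9 genes were above 0, beside 47.5% of all genes, with a median of 0.21 against -0.01 over all genes. In this comparison of 3 HFD PN with 4 Ctrl PN livers limma called 0 of the 9 at an unadjusted p under 0.01, beside 2.22% of all genes, and 1 of the 9 (Nfe2l2) under 0.05, beside 9.39%. Without Ctrl PN replicate 3 the differences of 4 of the 9 were above 0, beside 43% of all genes, with a median of -0.06 and 0 of the 9 called under 0.01, beside 0.325%. Without both, 7 of the 9 were above 0, beside 48.4% of all genes, with a median of 0.13 and 0 of the 9 called under 0.01, beside 2.24%. The median of the 9 genes thus lay above 0 or below it according to which of these 2 arrays was left out.

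Of 87 further genes listed by their known function, 75 were measured by a cluster of their own. At an unadjusted p under 0.01 limma called 0 of the 75, beside 0.555% of all genes. Under 0.05 it called 1 of the 75 (Akr1b8, lower), or 1.33% beside 2.36% of all genes that were lower at that threshold. Their differences were above 0 for 33, or 44% beside 44.1% of all genes, with a median of -0.02, the same as over all genes. The list medians lay between -0.09 for heme and iron handling and 0.11 for NRF2 regulators and partners. Without HFD PN replicate 1 they lay between -0.01 for heme and iron handling and 0.31 for regulators and partners, and without Ctrl PN replicate 3 between -0.24 for NADPH supply and 0.04 for thioredoxin and peroxiredoxin genes. Without both arrays they lay between -0.03 for NADPH supply and 0.19 for thioredoxin and peroxiredoxin genes.

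**Figure D4:**
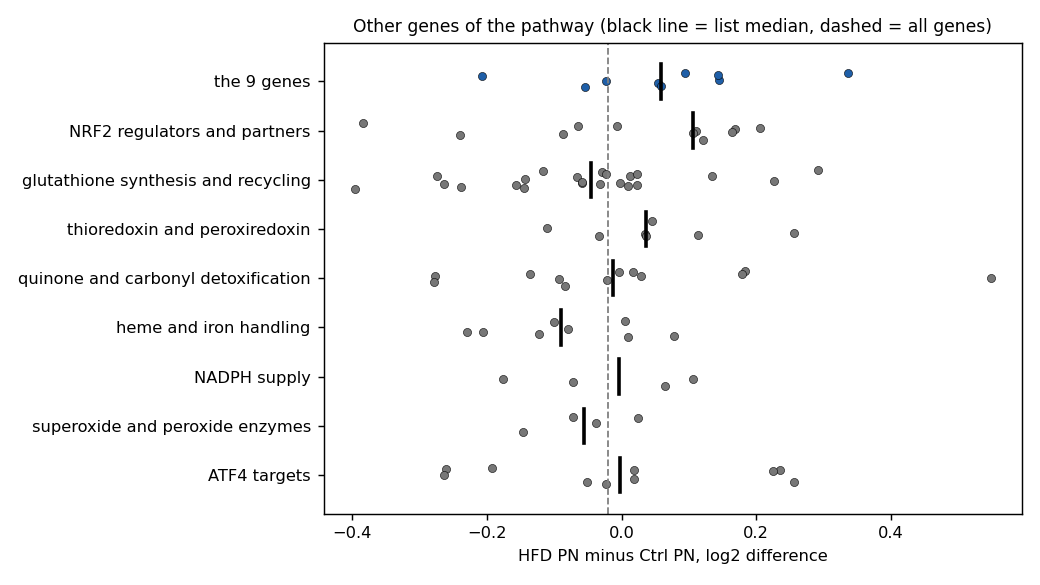
HFD PN minus Ctrl PN log2 difference of the 9 genes (blue) and of the measured members of 8 lists of related genes (grey), with a black line at each list's median and a dashed line at -0.02, the median of all genes. Genes of 2 lists are drawn in both, and the point farthest right is Osgin1 at 0.55.

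Among regulators and partners, 6 of 11 differences were above 0, beside 44.1% of all genes, and 0 were called under 0.01, beside 0.555%. At that share, 0 calls in a list as short as these say little about the list. The count above 0 was 10 of 11 without HFD PN replicate 1, against 3 of 11 (median -0.07) without Ctrl PN replicate 3. Without both arrays it was 10 of 11 (median 0.12). The shares of all genes above 0 were 47.5%, 43% and 48.4% in the same order. Bach1, the repressor of Hmox1, averaged 4.21 ± 0.65 (SD, n = 4) among HFD PN livers and 4.599 ± 0.25 (SD, n = 4) among Ctrl PN livers, which gave a difference of -0.38 (SE 0.30), which was -0.07 without HFD PN replicate 1. Mafg, a small Maf partner of NRF2, had a difference of 0.21 (SE 0.17), which was 0.35 without HFD PN replicate 1, against 0.13 without Ctrl PN replicate 3. Nfe2l1, a relative of NRF2 that is known for control of proteasome genes, had a difference of 0.12 (SE 0.32), which was 0.48 without HFD PN replicate 1, against -0.0090 without Ctrl PN replicate 3.
For glutathione synthesis and recycling, 7 of 22 differences were above 0, or 31.8% beside 44.1% of all genes, and 0 were called, beside 0.555%. Gstm2, a glutathione transferase, had log2 levels of 3.60, 3.99, 4.01 and 4.15 in HFD PN replicates 1 to 4 and of 3.39, 3.81, 3.64 and 3.75 in Ctrl PN replicates 1 to 4. HFD PN replicates 2, 3 and 4 lay above all Ctrl PN livers, with replicate 1 among them, and the difference was 0.29 (SE 0.14; exact permutation p = 0.114). Gstm2 is 1 of a family of near-identical genes, so that its probes may also read relatives. Glrx, which removes glutathione from proteins, had a difference of -0.40 (SE 0.23), which was -0.15 without HFD PN replicate 1.
Thioredoxin and peroxiredoxin genes had 5 of 7 differences above 0, beside 44.1% of all genes, and 0 called, beside 0.555%. Sesn2, a stress-induced sestrin, had a difference of 0.26 (SE 0.21), which was 0.42 without HFD PN replicate 1, against 0.38 without Ctrl PN replicate 3. Txn1, thioredoxin itself, had one of 0.11 (SE 0.16), which was 0.04 and 0.20 in the same order. Of the genes that detoxify quinones and carbonyls, 5 of 12 were above 0, beside 44.1% of all genes. Akr1b8, an aldo-keto reductase, had log2 levels of 1.18 to 1.42 in HFD PN and 1.39 to 1.74 in Ctrl PN livers, which gave a difference of -0.28 (SE 0.11; exact permutation p = 0.0857, limma adjusted p = 0.99988). All its HFD PN values were likewise below 1.55, so that they are not shown to lie above background.
Osgin1, a growth inhibitor induced by oxidative stress, had the highest difference of the 75 genes. Its log2 levels were 6.47, 7.996, 7.88 and 7.61 in HFD PN replicates 1 to 4 and 7.36, 6.79, 6.62 and 6.99 in Ctrl PN replicates 1 to 4. HFD PN replicates 2, 3 and 4 lay above every Ctrl PN liver and replicate 1 lay below every one. The difference was 0.55 (SE 0.33, 95% interval -0.19 to 1.29; exact permutation p = 0.229), and without HFD PN replicate 1 it was 0.89 (SE 0.18) and passed an unadjusted p under 0.01 (limma adjusted p = 0.381).
Heme and iron genes had 3 of 8 differences above 0, beside 44.1% of all genes, and 0 called, beside 0.555%. Slc48a1, a heme transporter, was at -0.23 (SE 0.14) and Blvrb, a biliverdin reductase, at -0.21 (SE 0.16), which was -0.06 without Ctrl PN replicate 3. The NADPH genes Taldo1 and Idh1 had differences of -0.18 (SE 0.17) and 0.11 (SE 0.20), which were -0.12 and 0.22 without HFD PN replicate 1 and -0.34 and -0.08 without Ctrl PN replicate 3. For the superoxide dismutases Sod3 and Sod1 they were -0.15 (SE 0.25) and -0.07 (SE 0.16), with 0.04 and 0.06 without HFD PN replicate 1 and -0.29 (Sod3) and -0.10 (Sod1) without Ctrl PN replicate 3. Among 10 targets of ATF4, a stress factor that also drives Slc7a11, 5 were above 0, beside 44.1% of all genes. Atf3 was at -0.26 (SE 0.15) and Ddit3 at 0.24 (SE 0.15).
Without HFD PN replicate 1, limma called 2 of the 75 genes at an unadjusted p under 0.01, Osgin1 and Gstm2 (difference 0.41, SE 0.12, limma adjusted p = 0.440), or 2.67% beside 2.22% of all genes. Arrays were also weighted by how closely they followed their group in these same values. HFD PN replicate 1 had the lowest weight, 0.206, so that this fit is not independent of leaving it out. With the weights limma called the same 2 genes, beside 1.92% of all genes. Without both arrays it called 4 of the 75, or 5.33% beside 2.24%, namely Osgin1 at 0.78, Sesn2 at 0.54, Nfe2l1 at 0.35 and Txnip, an inhibitor of thioredoxin, at 0.34. None of these passed an adjusted p under 0.05, the lowest adjusted p being 0.343 for Osgin1. Differences were above 0 for 48 of the 75 without HFD PN replicate 1, for 25 without Ctrl PN replicate 3 and for 47 without both. The shares of all genes above 0 were 47.5%, 43% and 48.4% in the same order.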

How the data were processed

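Liver RNA of 4 HFD PN and 4 Ctrl PN males was hybridised to Affymetrix Mouse Gene ST arrays, 1 per liver. The deposited log2 values are the output of RMA, which the authors ran with the oligo package in R 3.4.3 (submitters' processing notes and methods of the paper). RMA corrects background, brings the probe signals to a common distribution and summarises each transcript cluster. No probe-level data entered the analysis, which leaves these steps as the authors ran them. A genome build for the probe sets was not given in the sources used here.

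Of 41345 clusters, 23521 named 1 gene (23328 matched to RefSeq symbols by gene identifier), 1820 named several and 16004 had no name in the platform annotation. Clusters of 1082 genes with several were reduced to the brightest. All 22180 genes were fitted in R 4.3.3 by limma 3.58.1, with the 2 groups as the only term and no filter (lmFit, eBayes), with Benjamini-Hochberg adjustment over all of them. A second test of each gene was the exact permutation of livers between groups, two-sided. The procedure was tested on simulated arrays. Arrays have no read depth, and their number limits the precision.

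Genes named beside the 9 were the 2 of smallest p in each of 8 function lists, any at an unadjusted p under 0.01 and the nearest 3 in pattern to the 3 most variable of the 9. Marker genes were named where a result needed them, with all 5 neutrophil markers given. Nfe2l1 and Txnip were named after their values were seen. The 9 genes and all lists were chosen with earlier results of these data known. Of the red blood cell markers listed, 0 of 5 had a cluster of their own. Endothelial, stellate and bile duct marker lists, measured for 8, 8 and 4 genes, had median log2 differences of -0.21 (8 of 8 below 0), -0.26 (6 of 8) and 0.01 (2 of 4). Over all genes, 12389 of 22180 differences were below 0. At an unadjusted p under 0.01 limma called 1 stellate marker, lower in HFD PN, or 12.5% beside 0.555% of all genes. It called 0 of the endothelial and 0 of the bile duct markers. Alternatives changed the scaling (median centring or quantile normalization), the clusters used (the mean per gene, or every cluster with or without a name), the genes (dim ones left out), the fit (array weights, a variance trended with level and robust, the replicate number as a block), the test (the methods' t-test, in its forms for equal and unequal variances), the threshold (0.05) or the livers (each left out, or HFD PN replicate 1 with Ctrl PN replicate 3).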

Additional observations from a re-analysis of the deposited data

Results flagged for a closer look

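Of the genes named here, Cyp2e1, Ttr, Clec4f and C1qb were not examined for a liver far from its group. Of the rest, 9 had a liver far from the other 3 of its group, among 84 groups of 4 livers examined. In each case it was HFD PN replicate 1, an array that also stood apart over all genes. Chance gives about 1 in 20 for independent groups not chosen by value. The count cannot be read against that share, since all 9 come from 1 array. In addition, Zdhhc9 was named for its likeness to Txnrd1, and Nfe2l1 and Txnip after their values were seen. Of the 9 antioxidant genes, Keap1 was at 2.18 in this liver and between 3.27 and 3.46 in the rest of its group, and Txnrd1 was at 5.14 with the rest at 6.24 to 6.33. Further genes were low there as well, namely Glrx at 5.18 (the rest 6.11 to 6.23), Nfe2l1 at 3.02 (4.42 to 4.47), Txnip at 4.90 (6.12 to 6.28) and Zdhhc9 at 5.37 (6.45 to 6.52). The neutrophil markers S100a8, S100a9 and Camp were high there, at 3.52 (the rest 1.67 to 1.97), 3.61 (1.63 to 1.65) and 1.86 (0.982 to 1.046). No cause was tested.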

How the results depend on the processing

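The count of the 9 genes at an unadjusted p under 0.01 was 0 under every alternative run, and the lowest unadjusted p that limma or the methods' t-test gave any of them was 0.0424, for Nfe2l2 without HFD PN replicate 1. Of 117 values of the 9 genes under alternatives that can move the difference of some gene, 98 kept their direction and 19 reversed. The mean per gene is among these alternatives, yet it could move only Keap1 and Slc7a11, which have a second cluster. Nfe2l2 and Gclm were the 2 genes that never reversed. Slc7a11 was at -0.0615 with the mean of its clusters, Srxn1 at 0.0069 with median centring and 0.17 with array weights, and Keap1 at 0.038 with array weights. Without HFD PN replicate 1 and Ctrl PN replicate 3 together Keap1 was at 0.12, Hmox1 at -0.0226 and Srxn1 at 0.20. With 1 liver left out in turn Keap1 ran from -0.34 to 0.0839, Nqo1 from -0.20 to 0.0282, Gclc from -0.18 to 0.43, Hmox1 from -0.0085 to 0.32, Srxn1 from -0.20 to 0.24 and Txnrd1 from -0.11 to 0.43, and the median of the 9 from -0.06 to 0.21. Over all genes the count of 123 at an unadjusted p under 0.01 was 41 with dim genes left out (Slc7a11 among them), 426 with array weights, 195 with the methods' t-test for equal variances (128 for unequal variances), 276 over all clusters, 496 without both livers, 774 at a threshold of 0.05, and 50 to 492 with 1 liver left out, the highest being without HFD PN replicate 1 and the lowest without HFD PN replicate 4. Leaving out Ctrl PN replicate 3 gave 72, and leaving out HFD PN replicate 2 gave 81. Median centring changed the split of 43 higher and 80 lower genes to 52 and 48, a trended and robust variance to 21 and 111, array weights to 241 and 185, leaving out HFD PN replicate 1 to 393 and 99 and leaving out both livers to 375 and 121. Of the 75 further pathway genes, for which the count was 0, it was 2 with array weights, 4 without both livers, 1 at a threshold of 0.05 and 0 to 2 with 1 liver left out. With the replicate number as a block 73 genes passed and 0 of the 9. Neither the labels nor the paper say whether same-numbered livers belong together. Their deviations from the group means correlated across genes at -0.30, 0.29, -0.41 and 0.16. HFD PN replicate 1 was closest to Ctrl PN replicate 3, at 0.59. The 2 arrays that stood apart thus shape these values, which cannot decide whether the numbers mark pairs. The width of the intervals is limited by 4 arrays per group and by the 2 that stood apart, and the levels of Slc7a11 by background.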
